A study of Homo sapiens with 24 samples.

Results

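The RNA of 10 genes that govern epithelial splicing, cell polarity and proteolysis at the cell surface was followed in H9 hESCs, a human embryonic stem cell line. The genes are ESRP1, ESRP2, GRHL2, OVOL1, EPCAM, RAB25, CRB3, ST14, SPINT1 and SPINT2. They were chosen by name for these roles, with earlier results of these data known. Each was matched by gene symbol to its brightest transcript cluster, the set of array probes assigned to a gene locus. Each of the 10 genes had exactly 1 such cluster, and together they are 10 of 22465 genes (23781 clusters with a single gene symbol) that were tested. The study asked what depletion of RUNX1, a DNA-binding transcription factor, does while hESCs differentiate toward mesendoderm. H9 cells grown without feeders on mTeSR1 received a GIPZ lentivirus, which held either a hairpin that targets no gene (shNS, non-silencing) or a hairpin aimed at RUNX1 (shRUNX1), and were then kept under puromycin. Cells of both arms were collected undifferentiated (0 hr) or after 8, 24 or 72 hr in medium with fetal bovine serum and 2-mercaptoethanol, which gave 8 groups of 3 arrays each (24 in all). The hairpin against RUNX1 was a single clone, so an effect of its sequence on other transcripts and the effect of RUNX1 depletion cannot be told apart. Values are normalized log2 signals. A gene is said to be called, to have risen or to have fallen where limma gave a Benjamini-Hochberg adjusted p under 0.05 over all 23781 clusters together with a fold change over 1.5.

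Epithelial cells are bound by junctions into a sheet and have an apical and a basal side. ESRP1 and ESRP2 are RNA-binding proteins that favour the epithelial splice forms of their target transcripts, while GRHL2 and OVOL1 are transcription factors that maintain epithelial genes and oppose mesenchymal repressors such as ZEB1. EPCAM is an adhesion protein at the surface of epithelial cells and of hESCs, CRB3 is an apical polarity protein, and RAB25 is a small GTPase of the RAB11 family that directs recycling to the cell surface. ST14 (matriptase) is a membrane-bound serine protease that the Kunitz-type inhibitors SPINT1 and SPINT2 hold in check. Undifferentiated hESCs grow as an epithelial sheet, and they pass through an epithelial to mesenchymal transition when they form mesendoderm.

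Upstream sequence was given for 3 of the 10 genes (SPINT1, CRB3 and RAB25) and is shown because the repressors of epithelial genes bind the E-box CAGGTG and RUNX proteins bind TGTGGT. Sequences are from RefSeq (GRCh38.p14), all on the + strand, written 5′ to 3′, and lie before a transcript start. For RAB25 this is the start of the gene. For CRB3 and for the SPINT1 window shown it is a later start, 494 and 429 bases inside the annotated gene, and at most 30 bases are shown of these. Capitals mark each E-box (CAGGTG, or CACCTG on the other strand) and each RUNX motif (TGTGGT, or ACCACA on the other strand), which do not overlap here. The stretches are chr15:40844439-40844468 for SPINT1, chr19:6464041-6464070 for CRB3 and chr1:156060910-156061159 for RAB25.
SPINT1: tcccgggctgatCAGGTGtgtctcctcctc
CRB3: tgCAGGTGtaaggtccccctcaCACCTGcg
RAB25: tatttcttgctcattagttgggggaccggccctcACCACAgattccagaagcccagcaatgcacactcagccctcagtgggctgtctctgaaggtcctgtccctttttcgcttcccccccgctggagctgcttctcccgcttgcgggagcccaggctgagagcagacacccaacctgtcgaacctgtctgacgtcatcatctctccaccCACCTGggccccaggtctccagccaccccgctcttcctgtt
Both strands of a window from 250 bases before to 50 after the start were searched. The CRB3 window held 5 E-boxes, at -228, -208, -147, -89 and -60 from the start, of which the first pair is shown. Of 35114 such windows of all genes, 20.6% held at least 1 E-box, 3.49% at least 2 and 0.094% at least 5. The RAB25 window held E-boxes at -41 and 38 and a RUNX motif at -216, a motif found in 13.1% of all windows. Of the 2 windows of SPINT1, only the one shown held an E-box, at -26. The grainyhead motif AACNGGTT, present in 1.73% of all windows, was in 0 of the 4 windows searched. These matches describe letters in the windows and not binding.

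Several markers of hESCs were bright on every array, and the arrays' own measure of the knockdown was weak. POU5F1 (11.49 to 12.18), LIN28A (11.84 to 12.94) and PODXL (14.25 to 15.65), which mark hESCs, had high log2 signals on all 24 arrays. Other hESC markers fell from 0 to 24 hr in shNS cells, namely CRIPTO (-3.02), DNMT3B (-2.22), DPPA4 (-1.31) and SOX2 (-1.15). KRT5 (4.99 to 5.38), KRT14 (4.72 to 5.18) and CGA (4.87 to 5.42), of surface ectoderm and trophoblast, were low on all, but other genes of the same lists were not, with KRT8 at 10 to 13.54, KRT18 at 11.35 to 14.33 and GATA3 at up to 8.59. The study reported the knockdown for RUNX1 protein, by western blot, while the arrays measure RNA. The cluster of RUNX1 also carries the symbol LOC100506403 and was fitted among all 67528 clusters. Its log2 signal lay between 5.89 and 5.97 in shNS cells at 0 hr and between 6.55 and 6.73 at 24 hr, against 5.81 to 5.99 and 6.09 to 6.47 in shRUNX1 cells. The difference (shRUNX1 minus shNS) was -0.03, -0.17, -0.37 and -0.28 at 0, 8, 24 and 72 hr (SE 0.14, with limma's smallest adjusted p, 0.264, at 24 hr), and was called at 0 of the 4 times.

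Before any comparison, the arrays of one letter stood apart for these genes. Each array carries a letter, from A to C in shNS cells and from C to E in shRUNX1 cells, and the labels do not say what a letter stands for. The study's methods call the replicates independent experiments. C is the single letter that both arms share. Within shNS cells, the letter C array had the highest signal of its 3 arrays in 36 of 40 combinations of gene and time (90%, against 32.5% over all tested clusters). For ESRP1 the letter C array exceeded the mean of A and B by 1.33, 1.83, 1.66 and 0.72 on the log2 scale at 0, 8, 24 and 72 hr. In shRUNX1 cells letter C was the highest in 21 of 40 combinations (52.5%, against 36.6% over all clusters). Letters A and B exist only in shNS cells and D and E only in shRUNX1 cells, so letter and arm cannot be told apart except through C. The differences between the arms that it touched are therefore also given for letter C alone, or without it, a setting chosen after the values were seen. Letter C of shNS was mostly the highest of its group, so leaving it out of shNS by itself widens most differences. Calls gained in that way are therefore not further evidence of a difference between the arms.

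**Figure D1:**
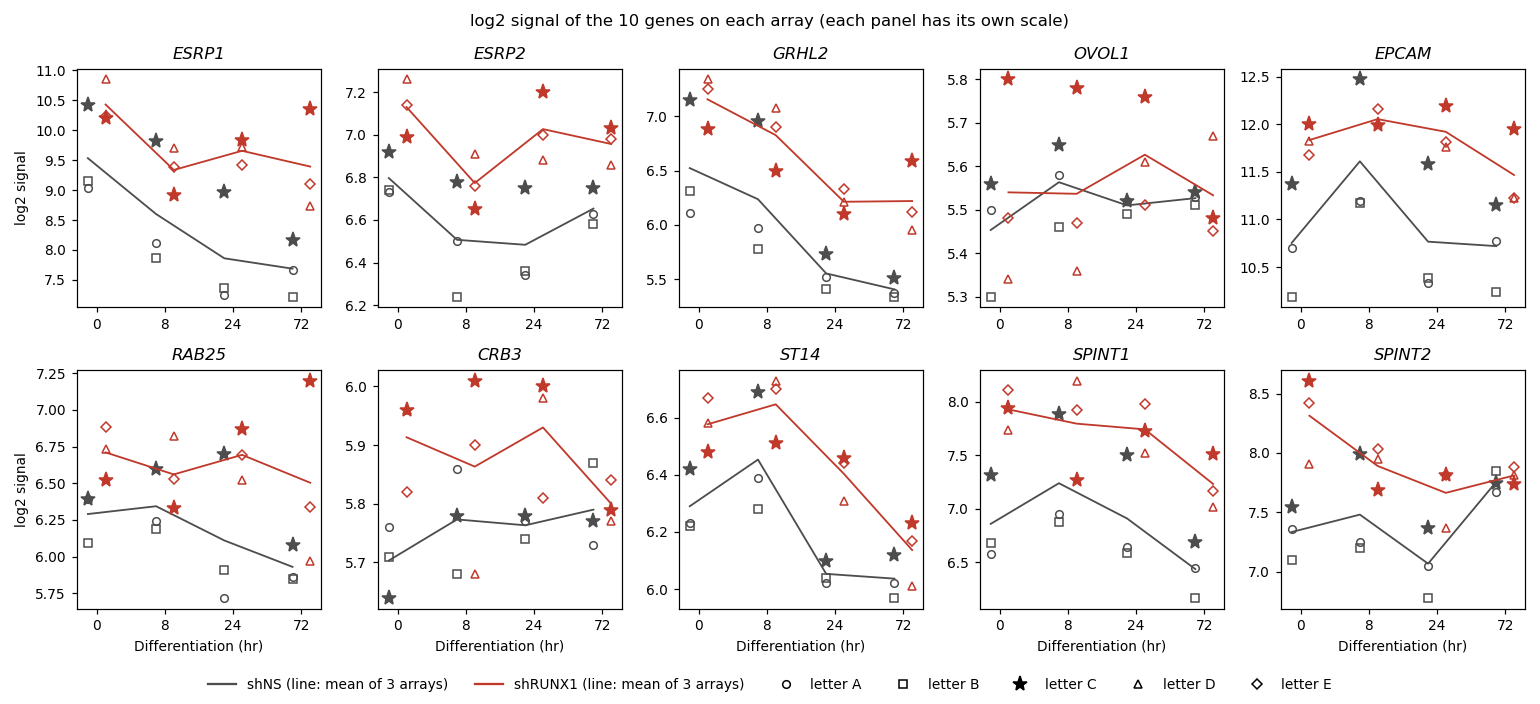
log2 signal (y axis, a separate scale per gene) of the 10 genes on each of the 24 arrays against hours of differentiation (x axis), with shNS in grey, shRUNX1 in red, a symbol per letter (filled stars for C) and lines through the means of 3 arrays. The grey stars lie above the open grey symbols in most panels, and OVOL1 and CRB3 span only 5.3 to 5.8 and 5.64 to 6.01.

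All 10 genes had their highest group mean in a shRUNX1 group and their lowest in an shNS group. The highest mean was that of undifferentiated shRUNX1 cells for 6 of the 10. The share of all clusters with such an order was not counted, so neither count is read as a result about the 10 genes. The group means of OVOL1 (5.46 to 5.63) and CRB3 (5.7 to 5.93) barely differed. Ordered by mean, however, neighbouring groups rarely separated, and in only 2 of 70 neighbouring pairs did the arrays not overlap, between the highest groups of ESRP1 and between the sixth and seventh groups of GRHL2. EPCAM was the brightest of the 10 (mean log2 signal 11.39 over 24 arrays, brighter than 94.6% of tested clusters) and OVOL1 the dimmest (5.54, brighter than 36.2%), with CRB3 also under the median of the tested values (6.251). Signals were not compared between genes beyond that, since each cluster has its own probes. In a bulk culture, fewer cells that express a gene and less of its RNA per cell cannot be told apart.

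Counted over the 10 genes, signals were higher in shRUNX1 cells at nearly every time, while calls were few. At 0 hr 1 of the 10 genes, SPINT2, was called higher (0.53% of all tested clusters were). At 8, 24 and 72 hr 0 of 10 were called by limma, where 0.00421%, 0.0252% and 0.458% of all clusters were called higher (0.00421%, 0.114% and 1.6% in either direction). At an unadjusted p under 0.05 there were 7, 2, 9 and 5 of 10 genes at the 4 times (21%, 8.53%, 16.4% and 20.2% of all clusters). The difference was above 0 for 10, 9, 10 and 10 genes at 0, 8, 24 and 72 hr, against 58.5%, 55.3%, 52.2% and 55.9% of all clusters, although at 72 hr OVOL1 and CRB3 (both 0.01) lay below 0 under quantile normalization, and SPINT2 with them under median centring. The median difference of the 10 genes was 0.52, 0.34, 0.59 and 0.44, against 0.039, 0.018, 0.01 and 0.024 over all clusters. The 3 shRUNX1 arrays lay above the 3 shNS arrays for 7 genes at 0 hr (15% of all clusters), 0 at 8 hr (6.98%), 8 at 24 hr (10.3%) and 5 at 72 hr (11.6%).

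These counts changed with letter C. In letter C alone the difference was above 0 for 8, 2, 10 and 8 of the 10 genes at the 4 times, with medians of 0.18, -0.28, 0.36 and 0.54. Between the other letters (D and E against A and B) it was above 0 for 10, 9, 10 and 10 genes, with medians of 0.75, 0.62, 0.73 and 0.31. Without letter C of shNS, 5 of the 10 genes were called higher at 0 hr (1.29% of all clusters), 1 at 8 hr (0.425%), 6 at 24 hr (1%) and 4 at 72 hr (1.55%). These gains follow in part from leaving out the array that was mostly the highest of shNS. Without letter C in both arms the counts were 5 (0.854%), 4 (0.568%), 6 (0.711%) and 3 (0.711%). With the letters as a fixed block 1, 0, 0 and 0 genes were called, and ESRP1, EPCAM, SPINT2 and ST14 changed sign without a call, the former pair at 8 hr and the latter at 72 hr. That block takes the offset between the arms from letter C, the only letter that both share. For the arms it is therefore not a check apart from letter C. Whether the letters mark experiments, cultures or processing was not tested.

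**Figure D2:**
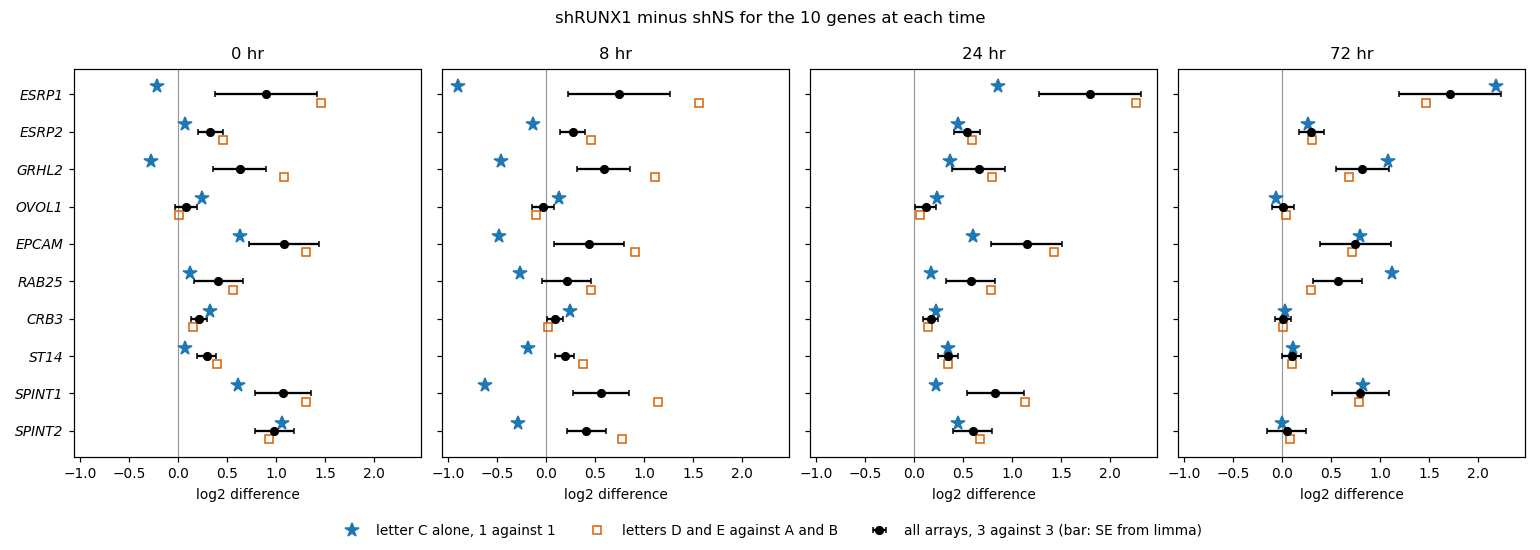
Difference between the arms (x axis, log2, shRUNX1 minus shNS) for each gene (y axis) at the 4 times, from all arrays (black points, bars are SE from limma, 3 arrays against 3), from letter C alone (blue stars) and from the other letters (orange squares). At 8 hr 8 of the 10 blue stars lie below 0 and 9 of the orange squares above it.

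**Figure D3:**
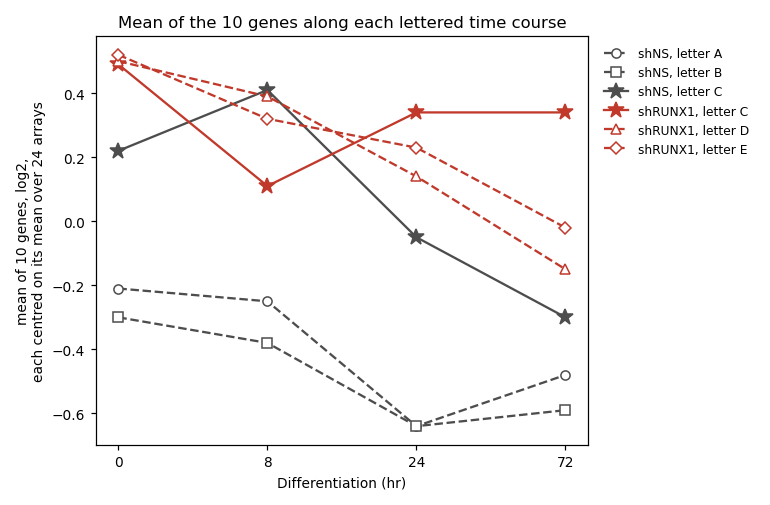
Mean of the 10 genes (y axis, log2, each gene centred on its mean over 24 arrays) against hours of differentiation (x axis) for each lettered time course of shNS (grey) and shRUNX1 (red) cells. Letter C of shNS starts at 0.22 and ends at -0.3, between letters A and B of shNS (-0.21 and -0.3 at 0 hr, -0.48 and -0.59 at 72 hr) and the shRUNX1 courses, except at 8 hr, where it is the highest at 0.41, and at 24 hr it is at -0.05.

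ESRP1 had the widest difference between the arms at 24 and 72 hr, without passing the test. The study itself lists ESRP1 among its top genes that were higher after RUNX1 depletion, from the same arrays. The difference given here is therefore not independent of that list. At 0 hr its log2 signal was 9.03, 9.15 and 10.42 in shNS cells (letters A, B and C) and 10.2, 10.85 and 10.24 in shRUNX1 cells (letters C, D and E). At 8 hr it was 8.11, 7.87 and 9.82 against 8.92, 9.71 and 9.38. Here the letter C array of shNS lay within or above the shRUNX1 arrays, and the arms overlapped. At 24 hr the values were 7.25, 7.36 and 8.97 against 9.83, 9.72 and 9.42, and at 72 hr 7.67, 7.22 and 8.17 against 10.35, 8.73 and 9.1. At these later times all 3 shRUNX1 arrays lay above all 3 shNS arrays. The difference was 0.9 (SE 0.52) at 0 hr and 0.74 at 8 hr. It was 1.8 at 24 hr (3.47-fold, adjusted p = 0.116 from limma) and 1.71 at 72 hr (3.27-fold, adjusted p = 0.0755). In letter C alone it was -0.22, -0.9, 0.86 and 2.18 at the 4 times, so that its sign at 0 and 8 hr rested on the other letters. Without letter C of shNS it was called at 0 hr (1.34, adjusted p = 0.0404), 24 hr (2.35, adjusted p = 0.00119) and 72 hr (1.95, adjusted p = 0.00457) from limma. Leaving out only replicate 3 of shNS at 24 hr (2.35, adjusted p = 0.0279) or replicate 2 of shRUNX1 at 72 hr (2.04, adjusted p = 0.0291) also gave a call at that time.

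ESRP2, the paralog of ESRP1, followed it over a narrower range. Over all 24 arrays its log2 signal spanned 6.24 to 7.26. In shNS cells the group means at 0, 8, 24 and 72 hr were 6.8 ± 0.1, 6.51 ± 0.27, 6.48 ± 0.23 and 6.66 ± 0.09 (SD, n = 3). In shRUNX1 cells they were 7.13 ± 0.13, 6.77 ± 0.13, 7.02 ± 0.16 and 6.96 ± 0.09. The arms did not overlap at 0, 24 and 72 hr and overlapped at 8 hr. At 24 hr the difference was 0.54 (SE 0.13, 1.45-fold, adjusted p = 0.0792 from limma), 0.45 in letter C alone, and 0.67 without letter C of shNS, where it was called (adjusted p = 0.00221).

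GRHL2 was higher in shRUNX1 cells at all times without a call, and fell over time in both arms. In shNS cells its log2 signal was 6.11, 6.31 and 7.15 at 0 hr, then 5.97, 5.78 and 6.96, then 5.52, 5.41 and 5.73, and at 72 hr 5.37, 5.34 and 5.51. In shRUNX1 cells it was 6.88, 7.34 and 7.25 at 0 hr, then 6.5, 7.08 and 6.9, then 6.1, 6.21 and 6.33, and at 72 hr 6.59, 5.95 and 6.12. The arms overlapped at 0 and 8 hr through letter C of shNS and did not overlap at 24 and 72 hr. The difference was 0.63 (SE 0.27), 0.59, 0.66 and 0.82 at the 4 times, with the smallest adjusted p at 72 hr (0.0902 from limma). In letter C alone it was -0.28, -0.46, 0.37 and 1.08. Without letter C of shNS it was called at all 4 times (0.94, 0.95, 0.75 and 0.87, with limma's adjusted p from 0.00939 to 0.0301). Leaving out only replicate 2 of shRUNX1 at 72 hr gave a call there (0.95, adjusted p = 0.0472 from limma). OVOL1, which represses mesenchymal genes in epithelia, stayed between 5.3 and 5.8 on all 24 arrays, and its differences between the arms lay between -0.03 and 0.12 (SE 0.11).

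EPCAM was high throughout and higher still in shRUNX1 cells, without a call. Its log2 signal at 0 hr was 10.7, 10.19 and 11.37 in shNS cells and 12, 11.82 and 11.68 in shRUNX1 cells. At 8 hr it was 11.19, 11.17 and 12.47 against 11.99, 12.01 and 12.16. The highest of the 24 signals was thus that of letter C of shNS at 8 hr, the only time at which the arms overlapped. At 24 hr the values were 10.33, 10.39 and 11.58 against 12.19, 11.76 and 11.81, and at 72 hr 10.77, 10.24 and 11.15 against 11.95, 11.23 and 11.22. The shRUNX1 arrays lay above the shNS arrays at both times. The difference was 1.08 (SE 0.36, 2.11-fold, adjusted p = 0.102 from limma) at 0 hr and 0.44 at 8 hr. It was 1.15 (2.22-fold, adjusted p = 0.142) at 24 hr and 0.75 at 72 hr. In letter C alone it was 0.63, -0.48, 0.6 and 0.8. Without letter C of shNS it was called at 0 hr (1.39, adjusted p = 0.00224), 24 hr (1.56, adjusted p = 0.000724) and 72 hr (0.96, adjusted p = 0.0168) from limma.

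Of the genes of apical trafficking and polarity, RAB25 resembled ESRP1 and CRB3 barely varied. The RAB25 group means in shNS cells were 6.29 ± 0.17 (SD, n = 3), 6.35 ± 0.22, 6.11 ± 0.52 and 5.93 ± 0.13 at 0, 8, 24 and 72 hr. In shRUNX1 cells they were 6.71 ± 0.18, 6.56 ± 0.25, 6.69 ± 0.18 and 6.51 ± 0.63. The arms overlapped at all times but 0 hr, and single arrays set the wide spreads, with 6.7 on letter C of shNS at 24 hr and 7.2 on letter C of shRUNX1 at 72 hr. The difference was widest at 24 hr (0.58, SE 0.25, adjusted p = 0.255 from limma) and 72 hr (0.57). In letter C alone it was 0.12, -0.27, 0.17 and 1.12 at the 4 times, and between the other letters 0.56, 0.46, 0.79 and 0.3. Without letter C in both arms it was called at 24 hr (0.79, adjusted p = 0.0158 from limma), and without replicate 2 of shRUNX1 at 72 hr it was called there (0.84, adjusted p = 0.0391). CRB3 signals lay between 5.64 and 6.01 on all arrays, and its widest difference, 0.21 (SE 0.08, adjusted p = 0.132 from limma) at 0 hr, came with arrays that did not overlap.

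The protease ST14 and its inhibitor SPINT1 were higher in shRUNX1 cells without a call, and SPINT2 was the only gene of the 10 called between the arms. ST14 signals spanned 5.97 to 6.73. Its arrays did not overlap at 0 hr (6.23, 6.22 and 6.42 in shNS cells against 6.48, 6.58 and 6.67) and at 24 hr (6.02, 6.04 and 6.1 against 6.46, 6.31 and 6.44). Its differences there were 0.29 (SE 0.1) and 0.35 (adjusted p = 0.103 from limma), both under the fold threshold. In letter C alone they were 0.07 and 0.35. At 8 and 72 hr the ST14 arrays of the arms overlapped, with differences of 0.19 and 0.1 (adjusted p = 0.598 and 0.597 from limma). In letter C alone these were -0.18 and 0.11.

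SPINT1 at 0 hr was at 6.58, 6.68 and 7.32 in shNS cells and at 7.94, 7.74 and 8.11 in shRUNX1 cells. At 24 hr it was at 6.64, 6.59 and 7.5 against 7.73, 7.52 and 7.98, and at 72 hr at 6.45, 6.17 and 6.69 against 7.51, 7.02 and 7.17. The arms did not overlap at these 3 times, although at 24 hr the nearest arrays were at 7.5 and 7.52. At 8 hr letter C of shNS (7.89) lay among the shRUNX1 arrays (7.27, 8.2 and 7.92). The difference was 1.07 (SE 0.29, 2.1-fold, adjusted p = 0.0532 from limma) at 0 hr, and then 0.56, 0.83 and 0.8. In letter C alone it was 0.61, -0.62, 0.23 and 0.83. Without letter C of shNS it was called at 0 hr (1.3), 24 hr (1.13) and 72 hr (0.93), with limma's adjusted p from 0.00314 to 0.0187.

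SPINT2 at 0 hr was at 7.36, 7.1 and 7.54 in shNS cells and at 8.61, 7.91 and 8.42 in shRUNX1 cells. It was higher in shRUNX1 cells by 0.98 (SE 0.2, 1.97-fold, adjusted p = 0.025 from limma; two-sided exact permutation p = 0.1, the smallest that 3 arrays against 3 allow). At this time letter C did not set it apart, since the difference was 1.06 in letter C alone and 0.93 among the other letters. With the letters as a fixed block, which takes the offset between the arms from letter C, it was 0.77 (adjusted p = 0.0465 from limma). Leaving out replicate 1 or 2 of shNS, or replicate 1 or 3 of shRUNX1, at 0 hr ended the call, the difference then lying between 0.83 and 1.18 over all arrays left out in turn. The call also ended where all transcript clusters were tested or only the arrays compared were fitted. At 8 hr SPINT2 was at 7.25, 7.2 and 7.99 against 7.69, 7.95 and 8.03, and at 24 hr at 7.05, 6.78 and 7.37 against 7.81, 7.37 and 7.81. At 72 hr all 6 arrays lay between 7.67 and 7.88. The arms overlapped at 8 and 72 hr and only just did not at 24 hr, where the nearest arrays were both at 7.37. The difference at the 3 times was 0.41, 0.6 and 0.05 (limma's adjusted p at 24 hr was 0.168).

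During differentiation of shNS cells ESRP1 and GRHL2 fell and the other 8 genes did not pass the test. By 24 hr ESRP1 fell by 1.67 (log2, SE 0.52, 3.18-fold, adjusted p = 0.0189 from limma) and by 72 hr it fell by 1.85 (adjusted p = 0.0105). GRHL2 fell by 0.97 (SE 0.27, adjusted p = 0.00818) and fell by 1.12 (adjusted p = 0.00302) from limma. These are 2 of 10 genes at each time, where 7.94% and 7.77% of all clusters fell. The ESRP1 arrays at 24 and 72 hr all lay below those at 0 hr, as did those of GRHL2. At 8 hr 0 of 10 genes were called by limma (8.41% of all clusters were), 2 of 10 had an unadjusted p under 0.05 (27.3%), and the nearest was EPCAM, higher by 0.85 (adjusted p = 0.127 from limma). All 3 letters of EPCAM were higher at 8 than at 0 hr, and with the letters as a fixed block this change was called (0.85, adjusted p = 0.00168). Without letter C of shNS the same 2 genes were called lower at 24 hr (-1.78 and -0.75, with 7.46% of all clusters lower) and 72 hr (-1.64 and -0.86, with 7.55%). The fall of ESRP1 to 24 hr did not pass without replicate 3 of shNS at 0 hr, nor without replicate 1 or 2 at 24 hr, its change then ranging from -2.23 to -1.23 over all arrays left out in turn. The fall of GRHL2 to 24 hr (-1.18 to -0.66) and that of ESRP1 to 72 hr (-2.1 to -1.4) also did not pass without replicate 3 of shNS at 0 hr, nor did the latter without replicate 2 at 72 hr. The fall of ESRP1 to 24 hr ended as well where only the arrays compared were fitted and under the test that the study's methods name, with unadjusted or adjusted p. With adjusted p that test called 0 of the 10 genes in any comparison.

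In shRUNX1 cells GRHL2 fell at both later times and SPINT2 at 24 hr. GRHL2 fell by 0.94 at 24 hr (adjusted p = 0.0142) and fell by 0.94 at 72 hr (adjusted p = 0.0204), and SPINT2 fell by 0.65 at 24 hr (SE 0.2, 1.57-fold, adjusted p = 0.0258), each against 0 hr and from limma. These are 2 of 10 genes at 24 hr (5.7% of all clusters fell) and 1 of 10 at 72 hr (3.76%). At 8 hr 0 of 10 were called by limma (7.01% of all clusters were), with 2 of 10 at an unadjusted p under 0.05 (26.6%). ESRP1 changed by -0.77 to 24 hr (SE 0.52, adjusted p = 0.338) and by -1.04 to 72 hr (adjusted p = 0.195), and its letter C array at 72 hr was at 10.35 against 8.73 and 9.1 for D and E. Without letter C in both arms 2 of 10 genes were lower at 24 hr (ESRP1, -0.97, and GRHL2, -1.03, with 6.48% of all clusters lower), and SPINT2 was not called there (-0.58, under the fold threshold). At 72 hr 4 of 10 were then lower, ESRP1 (-1.63), GRHL2 (-1.26), SPINT1 (-0.83) and RAB25 (-0.65), against 3.83% of all clusters. With single arrays left out, neither fall of GRHL2 (-1.08 to -0.85 and -1.12 to -0.8) passed without replicate 2 or 3 at 0 hr, nor that to 72 hr without replicate 2 or 3 at 72 hr. That of SPINT2 (-0.85 to -0.5) did not pass without replicate 1 or 3 at 0 hr or replicate 2 at 24 hr, and it ended as well under quantile normalization and where only the arrays compared were fitted. With the letters as a fixed block ESRP1 was called lower at 8 hr (-1.09, adjusted p = 0.0301 from limma) and 72 hr (-1.04, adjusted p = 0.0365), and SPINT1 at 72 hr (-0.7, adjusted p = 0.0192). ST14 changed by -0.44 to 72 hr with an adjusted p of 0.00357 from limma but a fold change of 1.36, under the threshold. SPINT2, at -0.5 to 72 hr (adjusted p = 0.102), went the other way from shNS cells, in which it was higher at 72 than at 0 hr by 0.42 (adjusted p = 0.136).

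**Figure D4:**
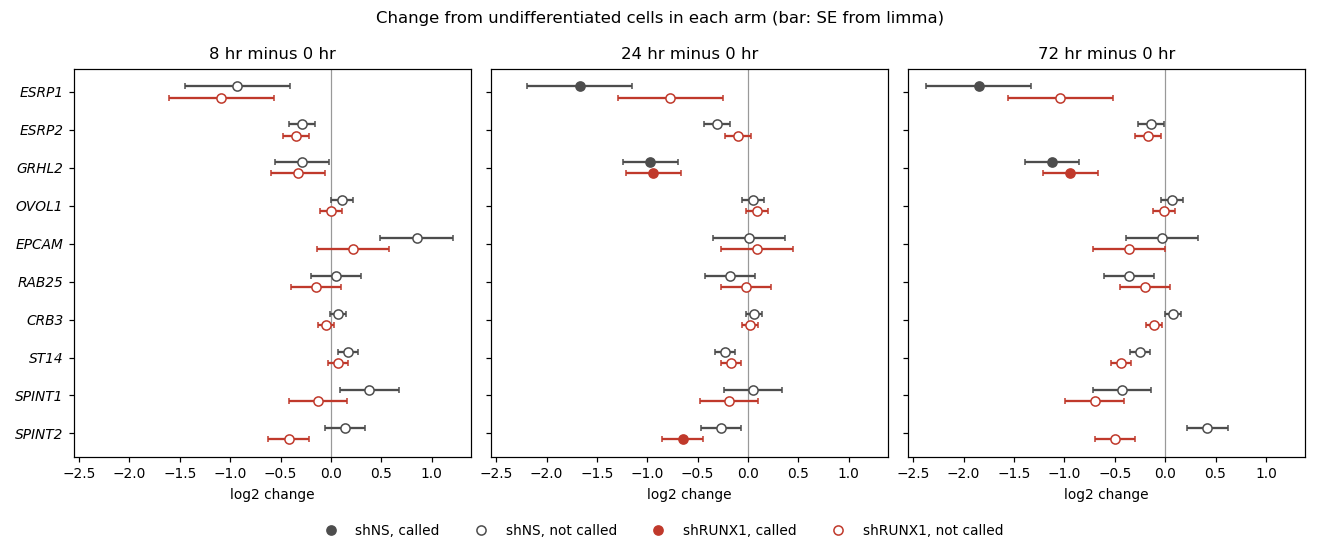
Change from 0 hr (x axis, log2) to 8, 24 and 72 hr for each gene (y axis) in shNS (grey) and shRUNX1 (red) cells, with SE bars from limma and filled points for called changes. The filled points are ESRP1 in shNS cells, GRHL2 in both arms at 24 and 72 hr, and SPINT2 in shRUNX1 cells at 24 hr.

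The test of the difference itself gave 0 calls. The change from 0 hr was set against the other arm for each of the 10 genes at 8, 24 and 72 hr, and limma's smallest adjusted p was 0.841, 0.803 and 0.159 (0.00421%, 0% and 0.00421% of all clusters were called). At an unadjusted p under 0.05 there were 0, 0 and 1 of 10 genes (5.9%, 7.46% and 14% of all clusters). The last was SPINT2 at 72 hr, whose difference between the arms changed by -0.92 from that at 0 hr (SE 0.29, adjusted p = 0.159 from limma). For ESRP1, which without a block was called over time in shNS cells and not in shRUNX1 cells, the arms' changes to 24 hr differed by 0.9 (SE 0.74, adjusted p = 0.822 from limma). This SE takes arrays of one letter at different times as independent. Letter by letter, ESRP1 fell more from 0 to 24 hr in each shNS course than in each shRUNX1 course. With the letters as a fixed block the arms' changes were also not called as different, so that they are not shown to differ. From 24 to 72 hr 0 of 10 genes were called by limma in shNS cells (1.17% of all clusters were) or in shRUNX1 cells (1.77%). The nearest was SPINT2 in shNS cells, higher by 0.69 (SE 0.2, adjusted p = 0.0984 from limma), with 1 of 10 genes in each arm at an unadjusted p under 0.05 (12.2% and 17.4% of all clusters).

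Across the 24 arrays 8 of the 10 genes correlated with each other at r from 0.48 to 0.89, and OVOL1 and CRB3 followed them less. These values are descriptions over 24 arrays that share a time course, arms and letters. The r between other pairs of genes was not computed, so how far these values exceed it is not known. The median Pearson r of the 45 pairs of genes was 0.6 over the 24 arrays (from -0.06 to 0.89) and 0.6 for deviations from the 8 group means (from -0.47 to 0.9). The highest over the arrays were ESRP1 with GRHL2 and EPCAM with SPINT1 (both 0.89), GRHL2 with ST14 (0.87) and ESRP1 with ESRP2 (0.86). Within groups ESRP1 and EPCAM reached 0.9. With the other 8 genes OVOL1 gave -0.06 (GRHL2) to 0.37 (EPCAM) over the arrays and CRB3 0.16 (GRHL2) to 0.43 (EPCAM). Over the 8 group means 38 of the 45 pairs were above 0.5, and CRB3 reached 0.81 with SPINT1 and 0.8 with EPCAM, and OVOL1 0.7 with EPCAM. ST14 and its inhibitors were at 0.84 (SPINT1) and 0.54 (SPINT2).

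**Figure D5:**
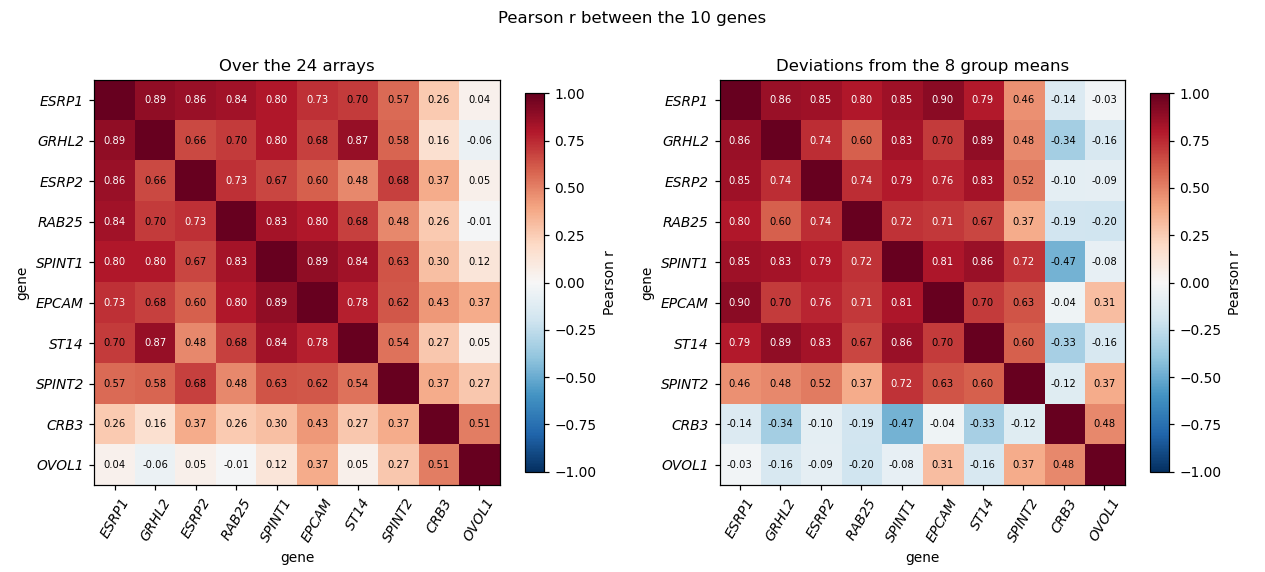
Pearson r between the 10 genes (both axes) over the 24 arrays (left) and for deviations from the 8 group means (right), on a colour scale from -1 (blue) to 1 (red). OVOL1 and CRB3 form the pale rows and columns, with 0.51 between the pair over the arrays.

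Among the other tested clusters, the genes most like ESRP1 over the 24 arrays were MYO5C (r = 0.949), CDH1 (0.925), MPPED2 (0.921), ZNF107, ZNF138, ZNF253, PCDHB5, CA5B, RIF1 and ZNF732 (0.899). MYO5C is a myosin motor of epithelial cells and CDH1 is E-cadherin. Of the 10 genes themselves, GRHL2 (0.89) was the most like ESRP1, followed by ESRP2 (0.859) and RAB25 (0.839). By r with ESRP1 among all tested clusters, with ESRP1 itself as 1, GRHL2 ranked 15, EPCAM 611, ST14 859 and SPINT2 2520. The genes most like the mean of the 10 were CDH1 (0.95), MARVELD2 (0.928), FAR2P2, CRYBG1, MAP7, MFGE8, ZNF876P, ZNF138, ICA1 and ZNF790-AS1 (0.905). MARVELD2 is tricellulin, a protein of tight junctions. The r of ESRP1 with SNAI2 was -0.727, with VIM -0.711 and with ZEB1 -0.7.

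Some repressors that act against these genes rose in shNS cells, and 2 were lower in shRUNX1 cells. Of 6 measured repressors of epithelial genes, 2, 4 and 2 rose from 0 to 8, 24 and 72 hr in shNS cells (4.68%, 7.72% and 7.3% of all clusters rose). Those at 24 hr were SNAI2 (1.51), TWIST1 (1.29), ZEB1 (0.68) and SNAI1 (0.64), with a list median at that time of 0.66 against 0.012 over all clusters. Between the arms 0, 0, 1 and 2 of 6 were called lower at 0, 8, 24 and 72 hr (0.471%, 0%, 0.0883% and 1.14% of all clusters were). SNAI2 was called at 24 hr (-0.94, with an adjusted p just under the threshold) and 72 hr (-0.72, adjusted p = 0.0468 from limma), and TWIST1 at 72 hr (-0.81, adjusted p = 0.0395). ZEB1 differed by -0.8 at 72 hr (adjusted p = 0.0504). ZEB2, whose cluster also carries the symbol ZEB2-AS1, was not in the tested set.

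The partners of the splicing regulators moved in both directions. Of 14 measured splicing regulators of epithelial and mesenchymal exons, 2 rose and 4 fell from 0 to 24 hr in shNS cells (7.72% and 7.94% of all clusters did), among them CELF2 (1.4), MBNL2 (0.92), MBNL3 (-1.56) and NOVA1 (-1.14). Between the arms 1 of 14 was called, MBNL3, higher at 72 hr by 1.15 (adjusted p = 0.0417 from limma). At 0 hr 0 of 14 were called, and 1 of 14 was above 0 (58.5% of all clusters were), with a median of -0.33 against 0.039 over all clusters. Of 4 measured genes whose exons ESRP proteins act on, CD44 rose by 4.76 and FGFR2 fell by 2.01 from 0 to 24 hr in shNS cells. FGFR2, a growth factor receptor, was higher in shRUNX1 cells at 72 hr by 1.14 (adjusted p = 0.0337 from limma). Values are per gene, so the exons themselves were not measured here.

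The other families held few calls between the arms. Their counts from 0 to 24 hr in shNS cells stand against 7.72% of all clusters that rose and 7.94% that fell. Of 11 measured epithelial transcription factors, KLF5 (2.95) and TFAP2C (2.6) were among 3 that rose to 24 hr in shNS cells, and GRHL3, a relative of GRHL2, was the only one called between the arms (-0.72 at 72 hr, adjusted p = 0.0495 from limma). Of 8 measured EPCAM partners and cleavage genes, CDH1 fell to 24 hr in shNS cells (-1.95, adjusted p = 0.0159) and FHL2 rose (0.9). CDH1 differed between the arms by 2.29 at 24 hr (SE 0.59, adjusted p = 0.0925) and 2.06 at 72 hr (adjusted p = 0.0624), and was not called. Of 13 measured membrane serine proteases, substrates and inhibitors, MET, the receptor of the growth factor that matriptase activates, rose by 2.23 in shNS cells to 24 hr, and 0 were called between the arms at any time. At 0 hr all 13 were above 0 (58.5% of all clusters were), with a median of 0.13 against 0.039. The mean log2 signal of this list was low at 0 hr, at 5.46 in shNS and 5.7 in shRUNX1 cells, under the median of the tested values (6.251). Of 19 measured genes of the Crumbs, PAR and Scribble complexes, EZR (1.21) and CDC42 (1) rose and PATJ (-0.7) fell to 24 hr in shNS cells, and of 16 measured genes of apical recycling 4 rose and 2 fell, among them MYO5A (1.34), MYO5B (0.68), MYO5C (-0.78) and RAB3IP (-0.65). In these families 0 of 19 and 0 of 16 were called between the arms at any of the 4 times.

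Markers of other cell states moved alongside the 10 genes. Of 11 measured mesenchymal markers all 11 rose from 0 to 24 hr in shNS cells (7.72% of all clusters did), with a median of 2.48. Between the arms 1, 0, 1 and 5 were called lower in shRUNX1 cells at 0, 8, 24 and 72 hr (0.471%, 0%, 0.0883% and 1.14% of all clusters were). The mean log2 signal of the list ran from 8.09 to 8.46 over the shNS arrays and from 7.79 to 8.05 over the shRUNX1 arrays at 0 hr, from 10.75 to 10.88 against 9.5 to 10.46 at 24 hr, and from 11.09 to 11.41 against 9.32 to 10.92 at 72 hr. SNAI2, TWIST1 and ZEB1 are in both this list and that of the repressors. VIM was lower in shRUNX1 cells already at 0 hr (-0.94, adjusted p = 0.0302 from limma). Of 9 measured hESC markers 4 fell and 1 rose to 24 hr in shNS cells (7.94% and 7.72% of all clusters did), and CRIPTO was higher in shRUNX1 cells at 24 hr by 1.95 (adjusted p = 0.0415), the only one of the 9 called between the arms. Their mean log2 signal at 24 hr ran from 12.36 to 12.68 in shNS and from 12.63 to 13.35 in shRUNX1 cells. The part of these shifts in the levels of the 10 genes was not tested. Of the markers of other lineages, KRT18 was the only one called between the arms (-1.03 at 72 hr, adjusted p = 0.0287 from limma), with 0 of 10 trophoblast and amnion, 0 of 7 definitive endoderm and 0 of 7 neuroectoderm markers called at any of the 4 times. KRT18 and KRT8, keratins of simple epithelia, rose in shNS cells to 24 hr (2.12 and 2.95). So did CER1 of the endoderm (4.31), GATA3 of the trophoblast (2.05) and NES of the neuroectoderm (2.44). In all, 2 of 6 surface ectoderm, 2 of 7 endoderm, 1 of 10 trophoblast and amnion and 2 of 7 neuroectoderm markers rose (7.72% of all clusters did). Of the neuroectoderm markers 2 of 7 fell (7.94% of all clusters did), OTX2 (-1.67) and LHX2 (-0.89), and the median of that list was -0.53. The mean log2 signal of the trophoblast and amnion list stayed between 5.2 and 5.72 on all arrays.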

How the data were processed

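Total RNA of the 24 cultures was labelled and hybridised to Affymetrix transcriptome arrays, 1 array a sample. The deposited values are log2 signals that the authors summarised and normalized with RMA in Affymetrix Expression Console, per the submitters' processing notes, which also name Transcriptome Analysis Console 1.0.0.234. RMA brings the arrays to a common distribution before probes are summarised, so a shift of most genes at once would be largely lost. Small differences between arrays remained in the summarised values of the tested clusters. The study's methods also name a levelling by GC content and a signal-space transformation. The number of arrays limits the precision. Array medians lay between 6.189 and 6.325, replicates correlated at r between 0.987 and 0.997, and 0 arrays were identical. The genome build was not given in the sources used here.

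Of 67528 transcript clusters, the 23781 with exactly 1 gene symbol were tested and 2995 other probe sets were not used. No filter on low values was applied. A gene with several clusters (479 genes) was read from the brightest by mean over the 24 arrays. Group means of all 8 groups were fitted in limma 3.58.1 (R 4.3.3; eBayes with trend, 16 residual degrees of freedom), and 16 comparisons were each adjusted by the Benjamini-Hochberg method. The fit was tested on simulated data. Figures were drawn with matplotlib 3.10.9 (Python 3.11.15). Exact permutation tests were two-sided. The study states that replicates were independent experiments, and the labels do not tie a letter to one. The 10 genes, the gene lists and the tests were chosen with earlier results of these data known. All 10 genes were described. Genes of the lists were named mostly from up to 4 per list with the largest change among those called between the arms or in shNS cells from 0 to 24 hr. Not all of these are printed. ZEB1, SNAI2, CDH1, VIM and RUNX1 were added, and the markers POU5F1, LIN28A, PODXL, KRT5, KRT14 and CGA were picked outside that rule. The alternatives changed the scaling, the clusters tested, the arrays fitted, the test (the methods' ANOVA), the fold threshold, the prior, array weights, blocks by title number or letter, and each replicate in turn, and letter C was left out after its values were seen.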

Additional observations from a re-analysis of the deposited data

Results flagged for a closer look

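Among 40 combinations of gene and interval looked at, 2 had every lettered course of shNS cells moving one way and every course of shRUNX1 cells the other. SPINT2, the protease inhibitor, was higher at 72 than at 0 hr in shNS cells (0.31, 0.75 and 0.2 for letters A, B and C) and lower in shRUNX1 cells (-0.86, -0.1 and -0.54 for letters C, D and E). The difference between these changes was -0.92 (log2, SE 0.29, adjusted p = 0.159 from limma), which missed the threshold. ESRP2, the splicing regulator, was higher at 72 than at 24 hr in shNS cells (0.29, 0.22 and 0.01) and lower in shRUNX1 cells (-0.17, -0.03 and -0.01), so that the changes differed by -0.24 (limma's adjusted p was 0.941, SE 0.18). Several of these changes are no larger than the spread between arrays of a group. How often such opposite courses arise over all clusters was not counted. The 2 combinations are therefore not read as a result about these genes. The groups hold 3 arrays each, too few for the test of single outlying arrays.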

How the results depend on the processing

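Of 3568 values of single genes under the alternatives with a test, 165 had the other sign, at most 0.45 in size, and 0 of these were called before or after. In all, 3429 stayed on their side of the threshold, 104 passed it and 35 lost it. The number of the 10 genes called moved as follows, and the number over all clusters moved with the alternatives too. Where no number over all clusters stands beside a count, the count is not read as a result about the 10 genes. Quantile normalization left 1 in shRUNX1 cells from 0 to 24 hr. Leaving out dim clusters, OVOL1 and CRB3 among them, gave 2 between the arms at 0 hr and 1 at 72 hr, and testing all transcript clusters gave 0 at 0 hr. Fitting only the arrays compared gave 1 in shNS cells to 24 hr, 1 and 2 in shRUNX1 cells to 8 and 72 hr, and 0 between the arms at 0 hr. The methods' ANOVA, refitted here on the groups compared, gave 0 in both arms to 24 and 72 hr and 0 between the arms at 0 hr with adjusted p. With unadjusted p it gave 1 in shNS cells to 24 hr, 1 and 2 in shRUNX1 cells to 8 and 72 hr, 3, 2 and 3 between the arms at 0, 24 and 72 hr, 1 for the change of the arm difference from 0 to 72 hr, and 1 in shNS cells from 24 to 72 hr. Dropping the fold threshold gave 2 in shRUNX1 cells to 72 hr. Array weights gave 1 in shNS cells to 8 hr, 2 in shRUNX1 cells to 72 hr, 3, 7 and 3 between the arms at 0, 24 and 72 hr, 1 for the change of the arm difference to 72 hr and 1 in shNS cells from 24 to 72 hr. Over all 23781 clusters array weights called 839 at 24 hr and 1412 at 72 hr between the arms, against 27 and 381 in the main fit. For the change of the arm difference to 72 hr they called 1079, against 1.

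Arrays of one title number across the arms had a median correlation of deviations of 0.14 (-0.04 to 0.35 over 12 pairs, 7 above 0.1), and arrays of one letter within an arm one of 0.16 (-0.09 to 0.53 over 36 pairs, 22 above 0.1). Different letters within an arm gave -0.11 (-0.49 to 0.3 over 72 pairs, 8 above 0.1), and letter C across the arms -0.1 (-0.31 to 0.21 over 4 pairs, 1 above 0.1). Neither number nor letter was above 0.1 in every pair, and the labels give neither as a shared batch, so neither was taken as a pairing. The replicate block by title number gave 2 in shRUNX1 cells to 72 hr, 3 and 3 between the arms at 0 and 72 hr, and 1 in shNS cells from 24 to 72 hr. The block by letter, fixed, gave 1 in shNS and 1 in shRUNX1 cells to 8 hr, 3 in shRUNX1 cells to 72 hr and 1 in shNS cells from 24 to 72 hr, and as a random block (correlation 0.082) 2 between the arms at 0 hr. The calls at 24 hr between the arms came to 0 under each block, and the fixed letter block takes the offset between the arms from letter C.

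With each array left out in turn, 0 to 2 genes were called between the arms at 0 hr, 0 to 4 at 24 hr and 0 to 3 at 72 hr, 0 to 1 in shNS cells to 8 hr, 0 to 2 to 24 hr and 1 to 2 to 72 hr, 0 to 1 in shRUNX1 cells to 8 hr, 0 to 2 to 24 hr and 0 to 1 to 72 hr, and 0 to 1 for the change of the arm difference to 72 hr. The 4 at 24 hr (ESRP1, ESRP2, EPCAM and SPINT1) came without replicate 3 of shNS and the 3 at 72 hr (ESRP1, GRHL2 and RAB25) without replicate 2 of shRUNX1. At 0 hr SPINT1 joined SPINT2 without replicate 3 of shNS or replicate 2 of shRUNX1. With the latter left out 866 of all clusters were called at 0 hr, against 238 in the main fit. Leaving out letter C of shNS gave 5, 1, 6 and 4 between the arms and 1 and 3 in shRUNX1 cells to 8 and 72 hr. Leaving it out of both arms gave 5, 4, 6 and 3 between the arms, 2 in shNS cells to 8 hr, 1 and 4 in shRUNX1 cells to 8 and 72 hr, and 1 in shNS cells from 24 to 72 hr. Over all genes, 238, 1, 27 and 381 were called between the arms at 0, 8, 24 and 72 hr, and the alternatives gave 0 to 866, 0 to 251, 0 to 839 and 0 to 1412. Median centring moved the split of higher and lower calls from 126 and 112 to 98 and 219 at 0 hr, and from 109 and 272 to 92 and 461 at 72 hr. The causes were not tested. Each of the 10 genes has 1 cluster, so the alternative of another cluster could not be run.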
